A study of Mus musculus with 13 samples.

Results

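The response of wild-type (WT) haematopoietic stem cells (HSCs) to 5-fluorouracil (5-FU) was described by setting all 4 WT libraries made after 5-FU (A2, A3, A4 and D4) against all 3 WT libraries from untreated mice (D1, D2 and D3). These are 7 of the 13 libraries of the series, and 12846 of the 13201 genes in the deposited table were tested. HSCs are the rare bone marrow cells that renew themselves and give rise to every blood lineage. Each library was made from polyadenylated RNA of 100 sorted mouse bone marrow HSCs by Smart-seq2, which copies whole transcripts from little input. Mice of both groups carried the WT genotype. The other 6 libraries came from HSCs lacking MEK1 (KO), an ERK-activating kinase and product of Map2k1, 3 untreated and 3 after 5-FU. They entered the filter on low genes, the shared estimate of spread and the genotype comparison at the end. The title of the series places the work in a question on ERK-dependent feedback and exhaustion of HSCs. Not given in the sources used here are the 5-FU dose, the time from injection to sorting, the sorting markers, the strain and age of the mice and how many animals stood behind a library. P-values therefore reflect spread from library to library, part of which may be technical.

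5-FU is a pyrimidine analogue whose metabolites block thymidylate synthase and are built into RNA and DNA. In the marrow it kills dividing progenitors and spares most HSCs, which are largely quiescent, and the loss of blood cells then draws HSCs into division. Many HSCs also carry transcripts of megakaryocytes, the platelet-forming cells, and a megakaryocyte-biased branch of the HSC pool is known for rapid platelet supply after stress.

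The 7 libraries held 11416753 to 45384866 recovered reads, the highest in untreated D1, which was sequenced on both flowcells. A3 and D4 were near copies: across genes their Pearson correlation was 0.988, while the other 8 pairs within the WT groups gave 0.912 to 0.943. Each result was therefore fitted once with 7 libraries and once with A3 and D4 averaged into 1 replicate, and a gene is said to have risen or fallen only where it passed both fits. The labels give acquisition of the untreated libraries and of D4 in 2015 and of A2, A3 and A4 in 2016, so treatment and date are nearly confounded. Only the WT 5-FU group holds both dates, so with date as a term the contrast is D4 alone against the untreated libraries. Every count given with the date term therefore rests on 1 treated library. Since D4, labelled 2015, is a near copy of A3, labelled 2016, it is uncertain whether that term separates date from treatment. Among WT libraries sequenced only on the first flowcell, treatment and date are fully confounded. The design text of the series counts 1 technical library, under the untreated WT group and not under 5-FU. Map2k1 stood at 604, 1634, 584 and 1573 normalized counts after 5-FU (libraries A2, A3, A4, D4) against 905, 1116 and 1766 untreated (D1, D2, D3), and no difference was called (adjusted p = 0.696).

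Levels are given as normalized counts, that is, reads divided by the size factor of the library, and as mean ± SD over libraries (n = 4 after 5-FU and n = 3 untreated). The log2 difference is 5-FU minus untreated on the log2 scale of the deposit, where changes of low genes appear too small, and is given with its standard error (SE). Where 2 adjusted p-values follow a gene, the first counts 7 libraries and the second has A3 and D4 averaged. With 7 libraries 858 genes passed, 478 higher and 380 lower after 5-FU, which is 6.68% of the genes tested (3.72% higher and 2.96% lower). With the pair averaged 510 passed (3.97%). Both fits were passed by 505 genes: 300 rose (2.34%) and 205 fell (1.6%). These last shares are the background for the counts in gene lists below. The libraries of the groups did not overlap in 504 of the 505. Over all genes tested the treated libraries lay wholly above the untreated ones in 8.8% and wholly below in 7.92%. With date as a term 184 of the 505 still passed, and 363 did among libraries sequenced only on the first flowcell (A2, A3 and A4 against D2 and D3). Since the groups hardly overlap in these genes by selection, their direction there is fixed and says nothing further. With only WT libraries in the fit 415 genes passed, and 198 with the pair averaged. Pairs of KO libraries after 5-FU, which enter the shared estimate of spread, correlated at 0.966 to 0.977. Pairs of untreated KO libraries gave 0.940 to 0.943, and WT pairs other than A3 and D4 gave 0.912 to 0.943. Whether the closer KO libraries lowered the WT p-values was not tested.

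**Figure D1:**
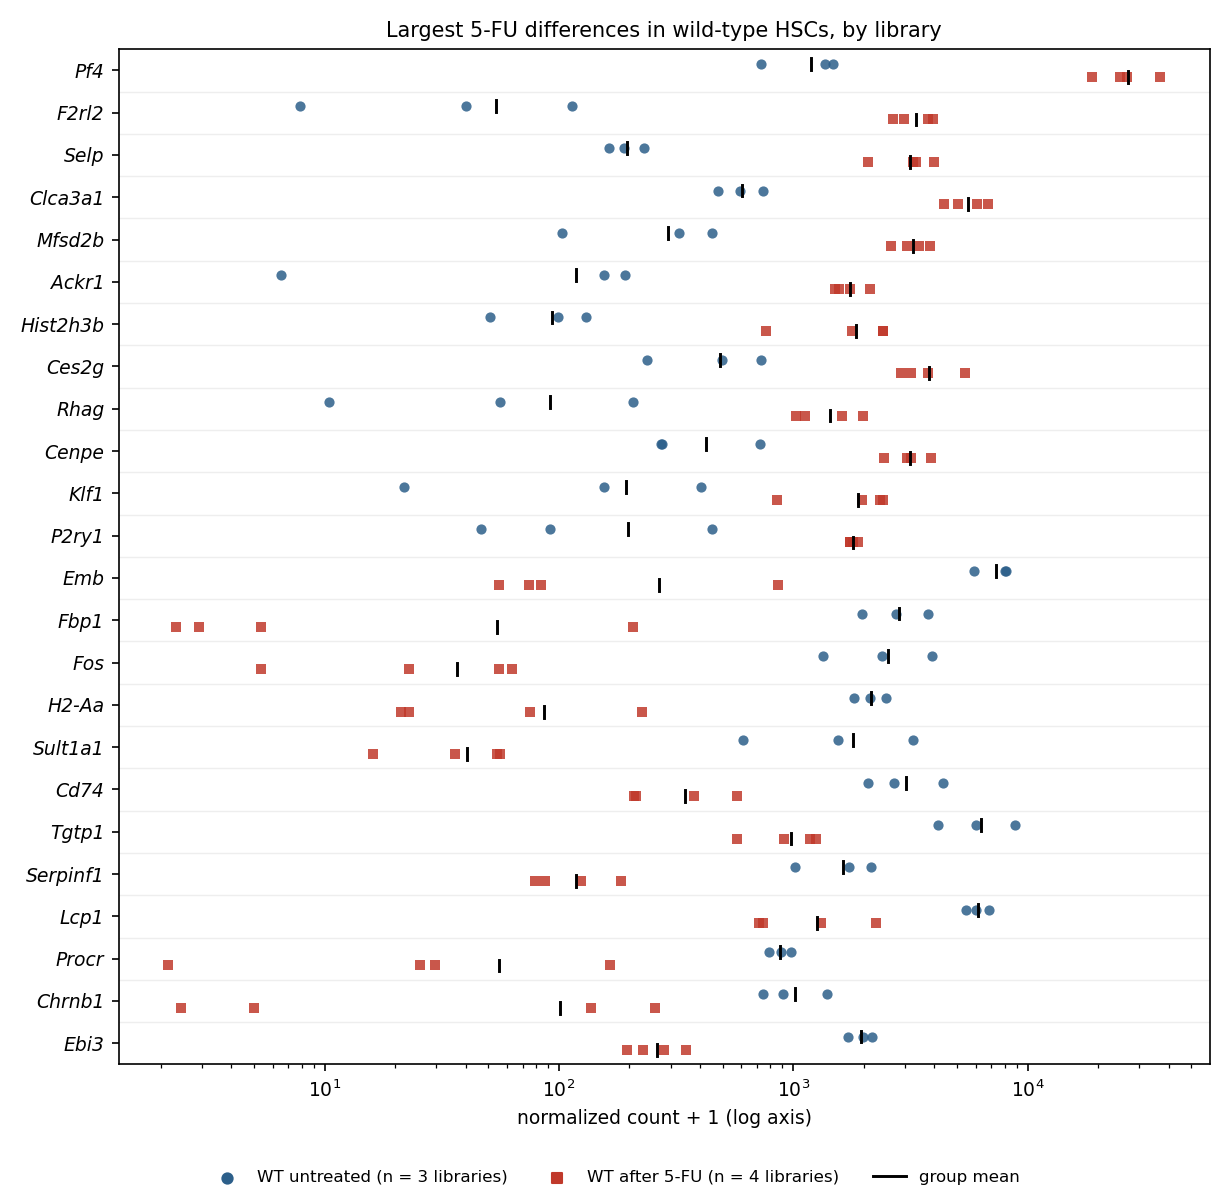
Normalized count plus 1 (log axis) of the 12 genes that rose and the 12 that fell most on the deposited log2 scale, in each untreated WT library (blue circles) and each WT library after 5-FU (red squares), with group means as black bars. The 24 genes were chosen among those whose libraries do not overlap between the groups, and A2 lies apart from the other treated libraries for Emb and Fbp1.

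Many transcripts of megakaryocytes and platelets rose. Of 32 megakaryocyte and platelet genes tested, 19 rose and 1 fell, with a median log2 difference of 1.13 against 0.00 over all genes tested. Pf4, which encodes a chemokine of platelet granules, had the largest log2 difference of all named genes on the deposited scale. By the ratio of means F2rl2, which is low when untreated, rose further (63.3-fold). Pf4 stood at 18815, 26623, 24694 and 36813 normalized counts after 5-FU (libraries A2, A3, A4, D4) against 729.7, 1360.05 and 1477 untreated (D1, D2, D3) (log2 difference 4.11 ± 0.33 SE, limma adjusted p = 5.1e-06, and 2.15e-05 with the pair averaged). The lowest treated library thus held over 10 times the count of the highest untreated one, and the ratio of the means was 22.5. Pf4 lies on chromosome 5 (ENSMUSG00000029373, chromosome 5, 90772435 to 90773383 on the plus strand, GRCm38). Its promoter is shown because Pf4 led on the deposited scale. These are the 250 bases before the RefSeq start (GRCm38.p6, chr5:90772185-90772434, plus strand), with capitals marking the match to GGAAGT, the core bound by ETS family factors, here read on the reverse strand:
Pf4: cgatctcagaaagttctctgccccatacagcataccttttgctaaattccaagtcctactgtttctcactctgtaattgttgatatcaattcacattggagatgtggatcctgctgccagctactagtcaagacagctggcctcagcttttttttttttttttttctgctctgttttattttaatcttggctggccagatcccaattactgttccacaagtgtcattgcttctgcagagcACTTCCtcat

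The ETS core GGAAGT, on either strand, was present in 9 of 23 promoters of the list (39.1%) and in 24.2% of the 9505 promoters matched to tested genes. The GATA motif AGATAA was in 2 of the 23 (8.7%, against 5.88% of all). Among promoters of all genes that rose, GGAAGT was in 24.5% and AGATAA in 8.02%. A match is a run of letters in this window and was not measured as a binding site.

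F2rl2, the thrombin receptor subunit PAR3 of mouse platelets, stood at 2663, 3953, 2964 and 3775 against 6.86, 112 and 39.1 in the same order of libraries (log2 difference 3.54 ± 0.25 SE, limma adjusted p = 1.11e-06, and 1.07e-05 with the pair averaged). Selp, encoding P-selectin of platelet granules, stood at 2094, 3342, 3985 and 3233 against 189, 163 and 229 (log2 difference 2.75 ± 0.25 SE, limma adjusted p = 5.93e-06, and 4.03e-05 with the pair averaged). Untreated levels of F2rl2 varied among themselves more than 10-fold, and even so lay far below the treated ones. Gp1bb, a chain of the receptor by which platelets bind Vwf, rose as well, at 1834, 2225, 2036 and 2592 against 285, 328 and 425 (1.89, adjusted p = 7.78e-05 and 0.000422). Other members that rose were Gp1ba, Gp5 and Gp9 of the same receptor complex, the integrin chains Itga2b and Itgb3, Vwf, the thrombin receptor gene F2r, Serpine2, Plek, Treml1, Cd9, Rab27b, Cavin2, Fermt3 and Clu. Clu did not pass without untreated D1 (adjusted p = 0.059).

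The count of megakaryocyte and platelet genes called higher was 17 to 20 when each WT library was left out in turn, 17 on the first flowcell alone and 14 with date as a term. Summed over the list, the treated libraries held 94535 to 130600 normalized counts and the untreated ones 39939 to 59549. In pools of 100 cells a change in the share of cells of a kind and a change in RNA per cell cannot be told apart. In a related list of 33 genes linked to platelet-biased and aged HSCs, 12 rose and 4 fell (median 0.34). Among its members outside the megakaryocyte list, Clca3a1, of a chloride channel regulator family with near-identical copies, stood at 4399.6, 6771, 5057 and 6078 against 476, 590.3 and 743 (log2 difference 2.63 ± 0.22 SE, limma adjusted p = 5.1e-06, and 2.84e-05 with the pair averaged). The members that fell were Procr, Sult1a1, Jun and Egr1, so the list moved in both directions. The count called lower with the pair averaged went from 4 to 2 without A4.

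A minority of erythroid genes and of lineage transcription factors rose as well. Of 21 erythroid genes 6 rose and 0 fell (median 0.41), and of 23 megakaryocyte-erythroid transcription factors 3 rose and 0 fell (median 0.11, 10 of them below 0). Gata1, the master regulator of both lineages, stood at 5340.4, 5524, 4441 and 4740.4 against 1113, 1815 and 276 (log2 difference 2.10 ± 0.32 SE, limma adjusted p = 0.000779, and 0.00304 with the pair averaged). Klf1, the activator of globin and other red cell genes, stood at 1965, 2421, 848 and 2356 against 402, 20.8 and 155 (log2 difference 2.23 ± 0.35 SE, limma adjusted p = 0.000815, and 0.00395 with the pair averaged). For both factors the lowest treated library lay above the highest untreated one. Gfi1b, a repressor needed in both lineages, averaged 5527 ± 1597 against 2562 ± 1060 (1.04, adjusted p = 0.0147 and 0.0329) and did not pass without untreated D1 (adjusted p = 0.0615). Rhag, a membrane protein of the red cell Rh complex, stood at 1024, 1992, 1126 and 1613 against 9.47, 207 and 54.9 (log2 difference 2.32 ± 0.29 SE, limma adjusted p = 0.000115, and 0.00066 with the pair averaged). The erythroid adhesion gene Icam4 averaged 2469 ± 424 against 817 ± 235 (1.28, adjusted p = 0.000607 and 0.00308), and Tspo2, an erythroid cholesterol-binding protein, 265 ± 25 against 52.2 ± 24.1 (0.86, adjusted p = 0.00381 and 0.0107). With only WT libraries in the fit, Tspo2 gave limma adjusted p = 0.049, and 0.143 with the pair averaged. Summed over the erythroid list the treated libraries held 55772 to 63281 normalized counts and the untreated ones 55293 to 80293. Most of that sum came from Car2, a carbonic anhydrase gene, at 37044 after 5-FU and 54957 untreated (-0.54, adjusted p = 0.043 and 0.0801; named after its values were seen). Slc4a1 and Ahsp, markers of maturing red cells, were not analysed here.

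Many genes of mitosis rose after 5-FU and few genes of DNA replication changed. Of 66 mitosis and G2/M genes 24 rose and 0 fell, all 66 had a positive difference, and the median was 0.97. Cdc20, the activator of the anaphase-promoting complex, stood at 4251, 4908, 3530.1 and 4390.4 against 1215, 939.9 and 819 (log2 difference 1.78 ± 0.19 SE, limma adjusted p = 3.05e-05, and 0.000169 with the pair averaged). Ccnb2, a mitotic cyclin, stood at 6993, 8360.2, 10578 and 6807 against 2939, 2709.7 and 1368 (log2 difference 1.69 ± 0.21 SE, limma adjusted p = 0.000113, and 0.000346 with the pair averaged). Their treated and untreated libraries were well apart. The promoters of both are shown because their CCAAT boxes, letters read by the factor NF-Y, recur at short spacing. Each is given for the 250 bases before the RefSeq start on the minus strand (GRCm38.p6, chr4:118437344-118437593 and chr9:70421555-70421804), with CCAAT in capitals:
Cdc20: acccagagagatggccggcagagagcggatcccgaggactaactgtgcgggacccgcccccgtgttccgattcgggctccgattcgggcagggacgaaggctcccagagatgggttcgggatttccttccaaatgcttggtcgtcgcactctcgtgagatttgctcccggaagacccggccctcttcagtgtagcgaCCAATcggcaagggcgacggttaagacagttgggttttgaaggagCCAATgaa
Ccnb2: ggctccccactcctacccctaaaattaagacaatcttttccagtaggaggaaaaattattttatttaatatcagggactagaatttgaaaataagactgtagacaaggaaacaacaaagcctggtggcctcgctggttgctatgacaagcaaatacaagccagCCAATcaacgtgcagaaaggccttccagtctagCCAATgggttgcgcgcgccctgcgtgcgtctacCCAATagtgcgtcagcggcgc

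The Ccnb2 window held 3 CCAAT boxes whose starts lay 33 bases apart each time, and the Cdc20 window held 2, 45 bases apart. On either strand CCAAT was in 40 of 57 promoters of the mitosis list (70.2%), in 55.6% of 45 promoters of the replication list and in 37% of all. Among promoters of all genes that rose it was in 39.6%, and of all that fell in 40%. The E2F motifs TTTGGCGC and TTTCGCGC were in 2 and 1 mitosis promoters and in 3 and 5 replication promoters (0.821% and 0.516% of all).

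Cenpe, a motor protein of the kinetochore, stood at 2445, 3891, 3069 and 3186 against 722, 273 and 274 (log2 difference 2.24 ± 0.23 SE, limma adjusted p = 2.74e-05, and 0.00013 with the pair averaged), and Cdca8, which encodes borealin, averaged 3385 ± 409.7 against 1187 ± 216 (1.28, adjusted p = 0.000113 and 0.000422). Also among the 24 were the mitotic kinase genes Plk1, Aurka and Bub1, the phosphatase gene Cdc25c, and Birc5, Cenpa, Ndc80 and Tpx2 of the spindle and kinetochore. Untreated D3 was the lowest untreated library for Cdc20 and Ccnb2. Without it 18 members were called against 33 with all 7 libraries, and 14 against 24 with the pair averaged. Fitting the 7 WT libraries alone gave 17 and the date term 10, again all higher.

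Among the 58 genes of DNA replication and the entry to S phase, 1 rose, 1 fell and the median was -0.13. The histone chaperone gene Asf1b rose (2695 ± 312 against 1261 ± 485; 0.95, adjusted p = 0.00425 and 0.0146). Rfc3, a subunit of the clamp loader, fell (1796 ± 179.5 against 3023 ± 585; -0.64, adjusted p = 0.0154 and 0.0471) but did not pass without D4, untreated D2 or untreated D3 (adjusted p = 0.0565, 0.0644 and 0.0574). Pold3, a subunit of DNA polymerase delta, averaged 572 ± 189 against 1334 ± 547 and passed 1 fit only (-0.85, adjusted p = 0.0415 and 0.0541). These shares are near the background, and the replication list as a whole lay slightly below 0 where the mitosis list lay far above it.

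Clustered histone genes, whose transcripts peak in S phase, rose in 6 of 25 cases and fell in 0 (median 0.66). With 7 libraries 11 were called higher, and 6 without D4. Hist1h2ae stood at 4402, 4145, 3929 and 5743 against 699.96, 983 and 655 (log2 difference 2.11 ± 0.19 SE, limma adjusted p = 7.55e-06, and 3.93e-05 with the pair averaged), and Hist2h3b, a histone gene outside the list, at 2427, 1773, 765 and 2418 against 97.9, 129.6 and 49.6 (2.44, adjusted p = 0.000113 and 0.000505). Hist1h2bc, Hist1h2ab and Hist1h1b also rose (1.83, 1.51 and 1.62). Histone genes have near-identical copies, so the split of reads between them is uncertain, and most of their transcripts carry no poly(A) tail.

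Among 29 G1 cyclins, kinases and inhibitors, the D-type cyclin gene Ccnd2 fell (4710.4 ± 1025 against 9460.4 ± 3003; -0.92, adjusted p = 0.00874 and 0.0276), and the inhibitor gene Cdkn2d and E2f8, a repressor of the E2F family, rose (0.85 and 1.21). Ccnd2 and E2f8 did not pass without untreated D3 (adjusted p = 0.0535 and 0.0633). Of 32 genes linked to quiescence and FoxO factors 2 rose and 2 fell. The stress gene Gadd45g rose from 212 ± 96.8 to 1847 ± 194 (log2 difference 2.07 ± 0.23 SE, limma adjusted p = 5.27e-05, and 0.000325 with the pair averaged), while Ndn, encoding the growth suppressor necdin, fell (-1.09).

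A list of pyrimidine synthesis genes and fluorouracil targets held no member that passed. Of its 35 genes, 0 rose and 0 fell in limma, with 9 at an unadjusted p under 0.05 and 2 in limma-voom (median -0.14). With single WT libraries left out, up to 2 were called higher and up to 3 lower. On the first flowcell alone 2 were called lower. The kinase gene Cmpk1 averaged 3284 ± 473 against 2059.9 ± 84.2 (adjusted p = 0.0514), the nucleoside transporter gene Slc29a1 444 ± 178 against 1282 ± 528 (0.0545) and the thymidylate kinase gene Dtymk 3697 ± 652 against 5183 ± 587 (0.0776). Of 45 genes of p53 and its direct targets 1 rose and 1 fell. The riser was Rps27l, a ribosomal protein paralogue (5522 ± 1052 against 3529 ± 337; 0.58, adjusted p = 0.03 and 0.0437), which did not pass without A2, D4, untreated D2 or untreated D3 (adjusted p = 0.0625, 0.106, 0.0656 and 0.104). Ndn is the member that fell. The p53 phosphatase gene Ppm1d averaged 811 ± 152 against 355 ± 62.9 and passed only with 7 libraries (0.75, adjusted p = 0.0221 and 0.0757). Of 73 DNA repair genes 3 rose and 0 fell: H2afx (1.16), the checkpoint kinase gene Chek2 (1.01) and the glycosylase gene Neil3 (1.56), which did not pass without untreated D3 (adjusted p = 0.0755). The count called higher with the pair averaged went from 3 to 1 without untreated D1.

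**Figure D2:**
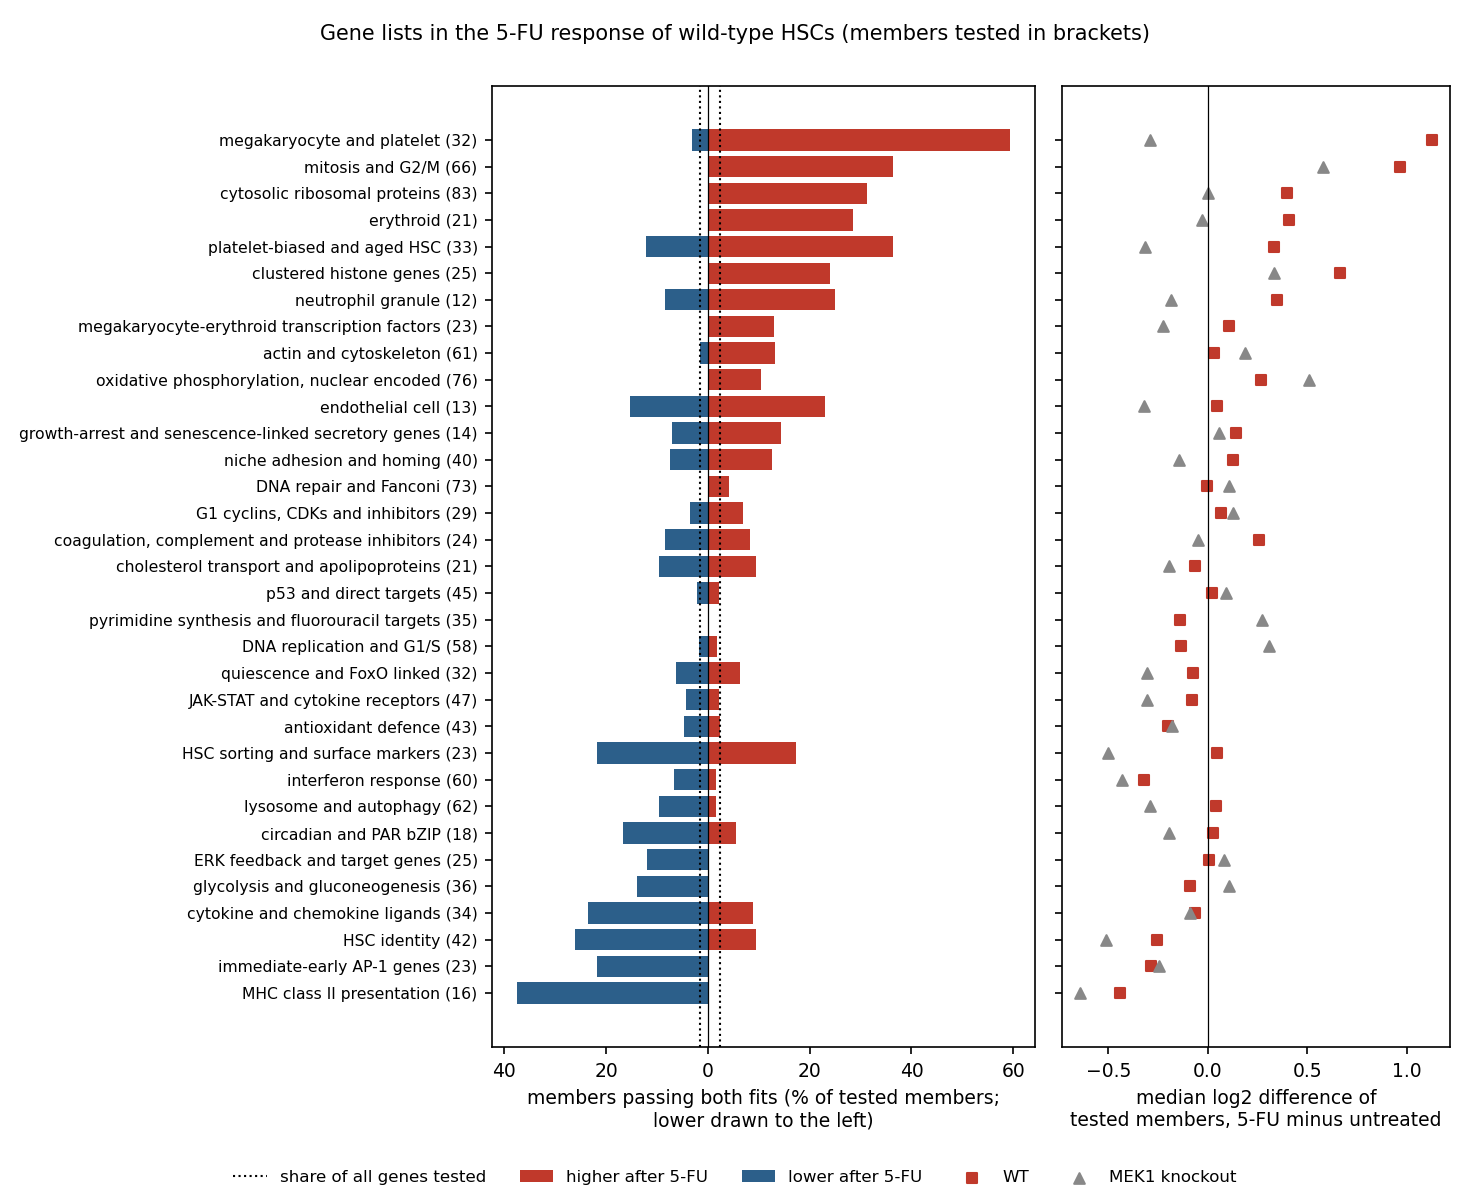
Left, percentage of tested members that passed both fits, higher after 5-FU to the right in red and lower to the left in blue, for gene lists with at least 3 such members and for the replication, p53 and fluorouracil lists (dotted lines, the shares of all genes tested). Right, median log2 difference of the tested members in WT (squares) and MEK1 knockout (triangles). Megakaryocyte and platelet genes lie at the top with 19 of 32 risen, and class II presentation genes at the bottom with 6 of 16 fallen.

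The largest differences also included genes outside these lists. Ackr1, the atypical chemokine receptor of red cells and vessels, stood at 1510.1, 1743, 2125 and 1574 against 5.55, 189.8 and 155 (2.44, adjusted p = 3.01e-05 and 0.000162). P2ry1, an ADP receptor of platelets, stood at 1748, 1888, 1791 and 1744 against 45.7, 90.3 and 449.97 (2.22, adjusted p = 0.000115 and 0.000596), and the 4 treated libraries were close together. Mfsd2b, the exporter of sphingosine-1-phosphate in red cells and platelets, averaged 3236 ± 518 against 293 ± 176 (2.58, adjusted p = 5.81e-06 and 4.03e-05), and the carboxylesterase gene Ces2g 3802 ± 1118 against 486 ± 245 (2.34, adjusted p = 3.01e-05 and 0.00013). Chrnb1, a subunit of the muscle acetylcholine receptor, fell, at 137, 1.45, 257 and 3.99 against 742, 905 and 1399.6 (log2 difference -1.98 ± 0.36 SE, limma adjusted p = 0.00299, and 0.0119 with the pair averaged). The near copies A3 and D4 were close to 0 and A2 and A4 were not, and with the pair averaged it did not pass without untreated D3.

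Genes that mark HSCs moved in both directions, with more falling than rising. Of 42 HSC identity genes 4 rose and 11 fell (median -0.25). Hlf, a transcription factor that marks HSCs, stood at 496, 493, 1052 and 416 against 3171, 2357 and 3432 (log2 difference -1.83 ± 0.23 SE, limma adjusted p = 0.000115, and 0.000629 with the pair averaged). Procr, encoding the endothelial protein C receptor used to isolate HSCs, stood at 1.16, 24.6, 165 and 28.6 against 882, 784 and 974 (log2 difference -2.01 ± 0.25 SE, limma adjusted p = 0.000113, and 0.000596 with the pair averaged). Procr was near 0 in A2 and highest, at 165 in A4, below the 784 or more in each untreated library. Ifitm1 averaged 4857 ± 456 against 14841 ± 1989.5 (-1.53, adjusted p = 0.000115 and 0.000422) and the sulfotransferase gene Sult1a1 39.8 ± 18.8 against 1807 ± 1343 (-2.61, adjusted p = 0.000169 and 0.000714). Fgd5, Cd27, Ndn, Ly6a and Egr1 also fell, and Vwf, Esam, Ctnnal1 and Gfi1b rose. The count called lower was 11 to 13 over the left-out libraries and 6 with the date term. The count called higher was 5 with 7 libraries and 3 without untreated D1, and with the pair averaged it went from 4 to 1 without that library.

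Of the sorting and surface markers tested, 4 of 23 rose and 5 fell. Kit, the receptor for stem cell factor and a defining HSC marker, stood at 3521, 4121, 5161 and 4496 against 8198, 3636 and 4887 and did not differ beyond the spread (adjusted p = 0.455). Ly6a, encoding Sca-1, stood at 981, 855, 968 and 912 against 1479, 2802 and 1817 (log2 difference -0.86 ± 0.18 SE, limma adjusted p = 0.0092, and 0.0278 with the pair averaged). Its 4 treated libraries were close together and all lay below the untreated ones. Slamf1, encoding the HSC marker CD150, stood at 3358, 4936, 4196 and 4318 against 1119, 2432 and 2762 and passed with 7 libraries but not with the pair averaged (0.95, adjusted p = 0.0173 and 0.0521), nor without A3, D4 or untreated D1 (adjusted p = 0.0558, 0.0502 and 0.0589). Cd34, which is low on long-term HSCs and rises as they become progenitors, stood at 1158, 1837, 1558 and 1682 against 6324, 4843 and 3315 (-1.40, adjusted p = 0.000631 and 0.00166), so it fell. Cd48, a marker of progenitors, stood at 921, 343, 899 and 353 against 287, 466 and 0 (adjusted p = 0.187) and Flt3, of multipotent progenitors, at 2.31, 29, 10.5 and 33.2 against 254, 179 and 3.17 (0.236). The integrin gene Itga2b (1.71) and the tetraspanin gene Cd9 rose. With 7 libraries 6 of these markers were called higher, and 3 without untreated D1, and with the pair averaged 4 went to 2 without A4. Itgam was not analysed here. Of 14 genes of multipotent progenitors and lymphoid priming, Ctla2a rose (10962 ± 2057 against 5547 ± 1065) and Cd34 fell.

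**Figure D3:**
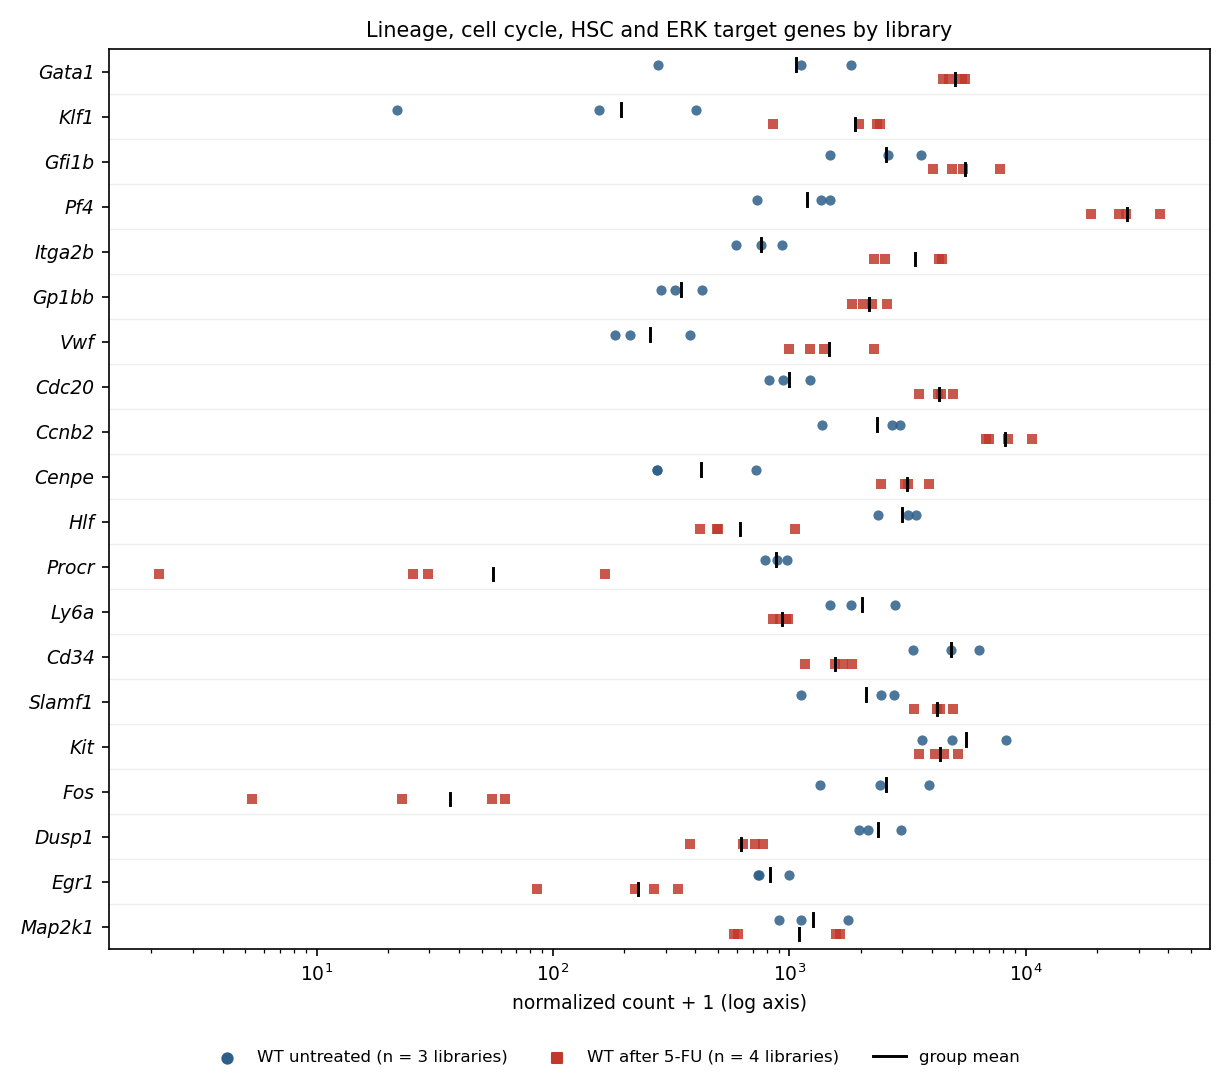
Normalized count plus 1 (log axis) in each WT library for genes of the megakaryocyte and erythroid lineages, mitosis, HSC identity and surface, ERK targets and Map2k1 (blue circles untreated, red squares after 5-FU, black bars group means). Gata1 to Cenpe lie higher after 5-FU and Hlf to Cd34 lie lower. Fos, Dusp1 and Egr1 also lie lower, and are the 3 that fell among 25 ERK feedback and target genes tested. Slamf1 is higher without passing both fits, and Kit and Map2k1 overlap between the groups.

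Several immediate-early genes, which growth factor and stress signals induce within minutes, fell. Of 23 such genes 0 rose and 5 fell (median -0.29). Fos, a subunit of the AP-1 transcription factor, stood at 54.4, 4.35, 61.8 and 21.9 against 3896, 1343 and 2403 (log2 difference -3.20 ± 0.34 SE, limma adjusted p = 3.01e-05, and 0.000162 with the pair averaged; ENSMUSG00000021250, chromosome 12, 85473890 to 85477273 on the plus strand, GRCm38). Its highest treated library held 61.8 and its lowest untreated library 1343. Jun, its partner, was low throughout, at 9.26, 5.79, 16.2 and 39.9 against 184, 211 and 289 (-1.05, adjusted p = 0.0114 and 0.0267), and Ier2 averaged 907 ± 298 against 2596 ± 357 (-1.25, adjusted p = 0.00121 and 0.00484). Of 25 ERK feedback and target genes 0 rose and 3 fell, and the list median was 0.00, with its sign turning under another scaling. The 3 were Fos, the MAP kinase phosphatase gene Dusp1 (625 ± 175 against 2360 ± 530.5; -1.48, adjusted p = 0.00132 and 0.0034) and the transcription factor gene Egr1 (227 ± 106 against 824 ± 145; -1.13, adjusted p = 0.0129 and 0.021), all of which are also immediate-early genes. With the date term 2 immediate-early genes were called lower, and with the pair averaged 3 of 5 were without A4.

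Several genes of class II antigen presentation fell. Of 16 such genes 0 rose and 6 fell (median -0.44). H2-Aa, the alpha chain of a class II molecule, stood at 226, 20.3, 74.2 and 21.9 against 2116, 1813 and 2483 (log2 difference -2.82 ± 0.33 SE, limma adjusted p = 8.49e-05, and 0.000374 with the pair averaged). Its promoter is shown for the inverted CCAAT box (ATTGG, in capitals) that lies in the conserved class II promoter region, in the 250 bases before the RefSeq start (GRCm38.p6, chr17:34287824-34288073, minus strand):
H2-Aa: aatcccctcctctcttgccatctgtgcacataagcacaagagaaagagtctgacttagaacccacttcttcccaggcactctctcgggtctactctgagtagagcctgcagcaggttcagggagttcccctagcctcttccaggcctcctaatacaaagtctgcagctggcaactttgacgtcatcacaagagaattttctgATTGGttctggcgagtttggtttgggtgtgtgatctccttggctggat

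On either strand CCAAT was in 9 of 12 class II list promoters against the 37% of all given above. Cd74, the invariant chain that loads class II molecules, stood at 377, 212, 575 and 208 against 2081, 2679.6 and 4349.8 (log2 difference -2.31 ± 0.33 SE, limma adjusted p = 0.000421, and 0.00193 with the pair averaged). The beta chain gene H2-Eb1 averaged 93.4 ± 117 against 982 ± 571 (-1.84, adjusted p = 0.00524 and 0.0199), with A2 the highest treated library. The protease gene Ctss, at 16.2, 1.45, 33.3 and 0 against 92.4, 362 and 296, fell as well (-1.16, adjusted p = 0.00674 and 0.0267), with H2-Oa and H2-DMb1. With the pair averaged, Ctss did not pass when A2, untreated D2 or untreated D3 was also left out. H2-Ab1 averaged 1675 ± 266 against 2799.6 ± 189.97 and passed only with 7 libraries (-0.64, adjusted p = 0.0352 and 0.0586). The count called lower was 5 to 6 without single libraries, and 2 to 5 with the pair averaged as well, lowest without untreated D3. A list of 10 dendritic cell genes shares H2-Aa, Cd74 and H2-Ab1 with this one, so it is not a separate observation. All 10 had a negative difference, but the shared genes were the only 3 called in limma with 7 libraries. Over that list, shared genes included, the libraries held 3884 to 4223 summed counts after 5-FU and 10142 to 12719 untreated. The part of dendritic cells in the result was not tested.

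Of 60 interferon response genes 1 rose and 4 fell (median -0.32). Ifitm1 and Ly6a, given above, fell together with the GTPase genes Irgm1 (1850.4 ± 350.1 against 3299 ± 261; -0.74, adjusted p = 0.00648 and 0.0111) and Iigp1 (475 ± 223 against 1891 ± 802; -1.47, adjusted p = 0.00879 and 0.0142), while the galectin gene Lgals9 rose (24766 ± 2451 against 13980.5 ± 2742; 0.82, adjusted p = 0.00275 and 0.00952). The list called 9 genes lower with 7 libraries and 5 without A3, 4 with the pair averaged and 2 when A2 was then left out, and 1 with the date term. It called 4 higher with 7 libraries and 1 without A3. Iigp1 did not pass without untreated D3 (adjusted p = 0.0531). Tgtp1, an interferon-induced GTPase with a near-identical copy, stood at 576, 1247, 1177 and 913 against 6054, 4140.3 and 8806 (log2 difference -2.29 ± 0.28 SE, limma adjusted p = 0.000113, and 0.000365 with the pair averaged). The ISRE-like motif GAAANNGAA was in 21 of 45 promoters of the interferon list (46.7%), in 8.67% of the promoters of all genes that fell and in 6.22% of all.

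Cytokine and chemokine ligands changed in both directions: of 34, 3 rose and 8 fell. The count called lower was 5 without untreated D3, 3 with the pair averaged and A2 left out, and 2 with the date term. Il1b, the inflammatory interleukin-1 beta, was at 59, 307, 482 and 317 against 0, 0 and 1.06 (1.45, adjusted p = 0.000939 and 0.00364), at most 1 read in each untreated library, and Tgfb1, a cytokine that restrains HSC division, at 249.95, 256, 385 and 309 against 27.4, 30.1 and 23.2 (1.13, adjusted p = 0.00106 and 0.0035). Ltb, encoding lymphotoxin beta, and Il15 fell (314 ± 141 against 2085 ± 785 and 277 ± 30.5 against 1282 ± 375). Ebi3, a subunit shared by cytokines of the interleukin-12 family, also fell, at 348, 227, 194 and 279.6 against 1719, 1978 and 2163 (log2 difference -1.98 ± 0.17 SE, limma adjusted p = 5.1e-06, and 2.84e-05 with the pair averaged). Of 47 cytokine receptor and JAK-STAT genes, the shared receptor chain gene Il2rg fell (-1.31) and the receptor chain gene Csf2rb2 rose (1.41). Il2rg was at 2716 in A2 and 1087 to 1238 in the other treated libraries.

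Adhesion and cytoskeleton genes held some of the largest single differences. Emb, encoding embigin, a membrane chaperone of transporters and adhesion molecule of the HSC niche, stood at 859.8, 73.9, 82.7 and 54.5 against 5904, 8046 and 8077 (log2 difference -3.97 ± 0.35 SE, limma adjusted p = 5.7e-06, and 2.84e-05 with the pair averaged; ENSMUSG00000021728, chromosome 13, 117208536 to 117274415 on the plus strand, GRCm38). A2 held more than 10 times the Emb count of the next treated library. Without A2 the log2 difference was -4.41 and the ratio of untreated to treated means went from 27.4 to 104. In the list of 40 niche adhesion and homing genes 5 rose (Selp, Cd9, Itgb2, Esam and Itgb3) and 3 fell (Emb, Cd34 and Cd63). With the pair averaged 3 of the 5 were called higher without A2, and with 7 libraries 5 were called lower and 3 without D4. Lcp1, an actin-bundling protein of blood cells, stood at 2263, 743, 1313 and 713 against 6867, 6046 and 5485 (log2 difference -2.10 ± 0.24 SE, limma adjusted p = 7.5e-05, and 0.000254 with the pair averaged). It was the 1 gene that fell among 61 actin and cytoskeleton genes, of which 8 rose, among them Tmsb4x (32520 ± 4798 against 17653 ± 3012), the focal adhesion gene Zyx (6479 ± 697 against 3068 ± 518) and Rhoa (7969.5 ± 484 against 4754 ± 1009.9). The actin list gave 5 genes called higher without untreated D3, against 10 with all 7 libraries, 2 without it when the pair was averaged, and 1 with the date term. Of 24 coagulation, complement and protease inhibitor genes F2r and Serpine2 rose (1.80 and 2.06), and Procr and Serpinf1, a secreted serpin, fell, the last at 183, 78.2, 124 and 86.3 against 1021, 1737 and 2155. In the list of 14 senescence-linked secretory genes Tgfb1 and the protease inhibitor gene Timp3 rose (1.31) and its relative Timp2 fell (-1.51).

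Among metabolic genes, 5 of the 36 glycolysis and gluconeogenesis genes fell and 0 rose. The count called lower with the pair averaged went from 5 to 3 without A4. Fbp1, the gluconeogenic fructose bisphosphatase, stood at 206, 4.35, 1.9 and 1.33 against 1966, 2739.8 and 3764 (log2 difference -3.47 ± 0.32 SE, limma adjusted p = 7.55e-06, and 4.24e-05 with the pair averaged), and A2 was again the highest treated library. Without A2 the log2 difference of Fbp1 was -3.78, against the -3.47 above, and the other treated libraries held at most 3 reads each. Ldhb, Aldoc and the glycolytic mutase gene Pgam1 fell (1558 ± 591 against 4718 ± 948, 178 ± 64.6 against 1028 ± 335 and 2542 ± 548 against 4485 ± 534). Apoe, encoding apolipoprotein E, was among the most abundant genes that rose, at 49903, 60703, 50449 and 55681 against 12392, 15087 and 19743 (log2 difference 1.78 ± 0.15 SE, limma adjusted p = 5.1e-06, and 2.84e-05 with the pair averaged). Of 21 genes of its cholesterol transport list, Clu rose too, and Lpcat2, a lysophospholipid acyltransferase gene, fell from 253, 227 and 167 to at most 1 read in each treated library. The lipoprotein receptor gene Apobr fell from 107, 218 and 204, also to at most 1 read. Of 43 antioxidant genes, the metallothionein gene Mt1 rose (1.18) and Gstm1 and the ferritin gene Fth1 fell (-1.18 and -0.53). Of 62 lysosome and autophagy genes 1 rose and 6 fell, among them the membrane proteins Cd63 (6453 ± 689.5 against 11347 ± 678) and Cd68 (87.9 ± 48.7 against 643 ± 58.7), the transcription factor gene Mitf, and Ctsh, at 22, 0, 10.5 and 0 against 112, 269.7 and 559. Of 18 genes of the clock and its output factors, Hlf fell, as did the clock activator gene Arntl (55.8 ± 31.8 against 464 ± 181). The clock repressor gene Bhlhe41 rose (0.63).

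Some ribosomal protein and respiratory chain genes rose by small steps, and up to 1500 nucleotides the medians of both lists were higher for shorter transcripts. Of 83 cytosolic ribosomal protein genes 26 rose and 0 fell (median 0.40, and 0.22 under quantile normalization). Among them were Rpl39, at 9235, 7009, 9119 and 12937 against 3109, 3344 and 2476 (log2 difference 1.54 ± 0.17 SE, limma adjusted p = 3.5e-05, and 2.15e-05 with the pair averaged), and Rps29, at 20459, 14309.8, 19638 and 32149 against 6419, 7003 and 5609.9 (1.66, adjusted p = 8.79e-05 and 1.07e-05). Rps28 and Rpl37a rose as well (1.38 and 1.08). Within the list the 11 genes with transcripts up to 500 nucleotides had a median of 0.85, the 31 of 500 to 750 one of 0.43, the 23 of 750 to 1000 one of 0.22 and the 11 of 1000 to 1500 one of 0.04. The 7 longer ribosomal genes did not follow this order, with medians of -0.22 (3 genes, 1500 to 2000 nucleotides) and 0.01 (2 genes, 2000 to 3000) and single genes at 0.53 and 0.88. Across the list Spearman's rho between length and log2 difference was -0.47, a description over genes measured in the same libraries. Of 76 nuclear genes of oxidative phosphorylation 8 rose and 0 fell (median 0.27, rho with length -0.66), led by the complex I gene Ndufa1 (0.89) and the cytochrome oxidase genes Cox6c, Cox8a and Cox6b1 (0.71, 0.58 and 0.60). Cox6b1 did not pass without D4 or untreated D2 (adjusted p = 0.0638 and 0.0658).

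Outside these lists, and without histone genes and pseudogenes, the 88 genes with transcripts up to 500 nucleotides had a median of 0.22, with 13 risen and 0 fallen. The 2982 genes of 2000 to 3000 nucleotides had one of -0.01, with 63 risen and 58 fallen. Above 750 nucleotides the medians outside these lists lay between -0.04 and 0.00. For ribosomal genes up to 500 nucleotides, medians against the untreated WT mean were 0.94, 0.49, 0.73 and 1.52 in A2, A3, A4 and D4. The near copies A3 and D4 thus stood far apart. Untreated WT libraries lay at -0.02, 0.14 and -0.16, and untreated KO libraries at 0.32 to 0.39. The part of length, or of the single library, in the rise of ribosomal and respiratory genes was not tested. In the mitosis and the megakaryocyte lists rho with length was 0.06 and 0.06. The ribosomal list called 19 genes higher without untreated D3 against 30 with all 7 libraries, and 14 on the first flowcell alone. The respiratory list called 3 without D4 against 10, and 2 when only the 7 WT libraries were fitted. With the pair averaged it called 9, and 2 without A2.

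**Figure D4:**
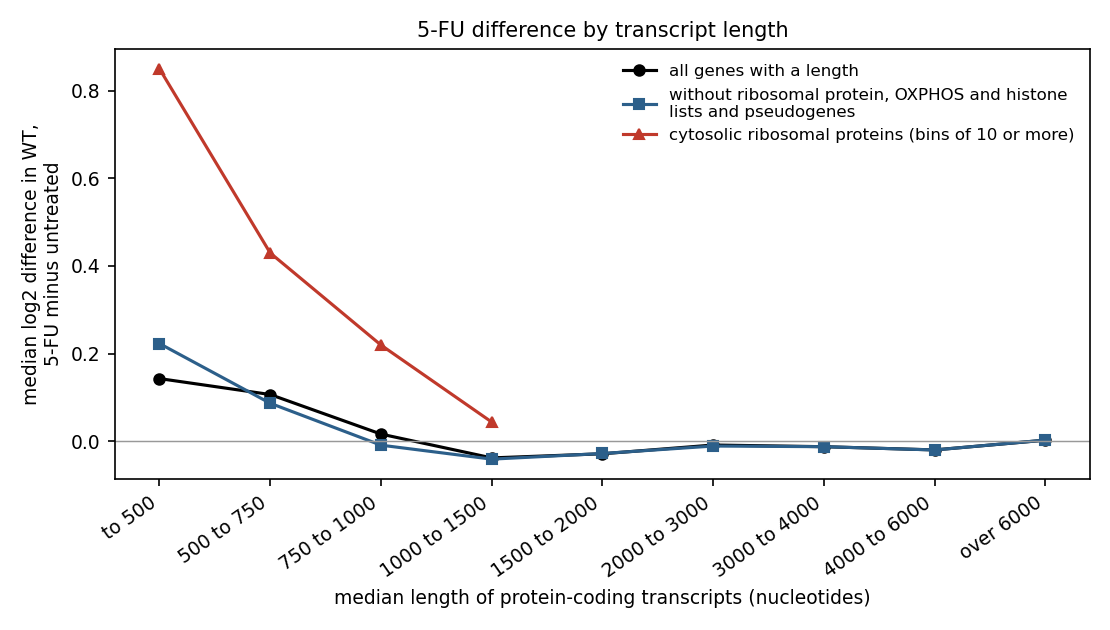
Median log2 difference in WT (5-FU minus untreated) of genes grouped by the median length of their protein-coding transcripts in nucleotides, for all genes with a length (black), for genes outside the ribosomal protein, oxidative phosphorylation and histone lists and pseudogenes (blue) and for cytosolic ribosomal protein genes (red). Medians fall from 0.85 to 0.04 over the ribosomal genes up to 1500 nucleotides (11 genes in the first and in the last of these bins; bins under 10 genes are not drawn), and those of all genes lie near 0 above 750 nucleotides.

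Among marker lists of cells outside the HSC gate, some held genes that rose or fell and 4 held none. Of 12 neutrophil granule genes 3 rose and 1 fell. S100a8, a calprotectin subunit, stood at 639, 196, 804 and 419.8 against 46.7, 47.5 and 45.4 (1.35, adjusted p = 0.00299 and 0.00235), and Lcn2, a granule protein, at 91.4, 59.4, 35.2 and 43.8 after 5-FU against 0 reads in each untreated library, at least 22.6-fold higher against 3 reads per library. With only WT libraries in the fit, Lcn2 gave limma adjusted p = 0.0443, and 0.113 with the pair averaged. Ms4a3 averaged 305 ± 196 against 16.6 ± 15.5 (1.21, adjusted p = 0.0161 and 0.0454) and did not pass without D4 or untreated D1 (adjusted p = 0.0517 and 0.0572). Anxa1 fell (1228 ± 362 against 4203 ± 756), and the summed list was 20949 to 23869.8 after 5-FU and 24109.5 to 29550.4 untreated. Of 22 monocyte and macrophage genes Cd68 and Ctss fell, and the receptor gene Csf1r was at 4.63, 1.45, 1.9 and 0.664 against 156, 1.16 and 79.2 (adjusted p = 0.0972). Of 8 mast cell and basophil genes the IgE-binding chain Fcer1a rose, at 1559.9, 1719.5, 1254 and 1550.2 against 188, 164 and 209 (log2 difference 1.89 ± 0.26 SE, limma adjusted p = 0.000307, and 0.0015 with the pair averaged). The granule proteoglycan gene Srgn averaged 30999.8 ± 4345 against 23517 ± 2456 and Gata2 1603 ± 242 against 2150.1 ± 233 (adjusted p = 0.0773 and 0.183).

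Of 13 endothelial genes 3 rose and 2 fell. Vwf, shared with megakaryocytes, stood at 994, 2279, 1219 and 1401 against 211, 182 and 379 (1.62, adjusted p = 0.000708 and 0.00264) and the receptor gene Kdr at 31.2, 142, 80.8 and 157 against 0.326, 2.31 and 0 (0.85, adjusted p = 0.0136 and 0.0459). The mucin gene Emcn fell (329.98 ± 118 against 1292 ± 457). The tight junction gene Cldn5 had 0 reads in every treated library and 187, 870.4 and 274 in the untreated ones (-1.76, adjusted p = 0.000631 and 0.00259), at least 140.1-fold higher untreated against 3 reads per library. Members of this list thus went in opposite directions. The count called higher with the pair averaged went from 3 to 1 without A4.

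No gene passed both limma fits in 4 lists. Of 10 B and plasma cell genes there were 2 at an unadjusted p under 0.05 and 0 in limma-voom. Of 8 T and NK cell genes the counts were 3 at an unadjusted p under 0.05 and 0 in limma-voom, of 3 eosinophil genes 1 at an unadjusted p under 0.05 and 0 in limma-voom, and of 8 mesenchymal stromal genes 1 at an unadjusted p under 0.05 and 1 in limma-voom. Cd3e, Cdh5 and Cxcl12, defining markers of such cells, were not analysed here, and Kitl had 0 reads in all 7 libraries. The closest were Vpreb1 (55 ± 16.8 against 7.1 ± 10.9; adjusted p = 0.0715), Jchain and Vpreb3 (0.21 and 0.245) of B cells, and Lat (0.0776) and Cd4 (0.18) of T cells. Nkg7, a granule gene of cytotoxic cells, averaged 6289 ± 426 against 3127 ± 1337 and passed only with 7 libraries (1.00, adjusted p = 0.0404 and 0.0916). In the eosinophil list Ccr3, Siglecf and Ear2 gave adjusted p = 0.108, 0.744 and 0.681, and in the stromal list Runx2, Sparc and Col1a2 gave 0.0665, 0.332 and 0.338. The summed T and NK list was 8137 to 10325 after 5-FU and 4314 to 6776 untreated, so the groups did not overlap, and Nkg7 and Lat made up most of it. The part of such cells in the results above was not tested.

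The same contrast in MEK1-deficient HSCs (5-FU libraries A5, A6 and A8 against untreated D4, D5 and D6) showed where the WT response differed between genotypes. There 2.78% of genes were called higher and 3.14% lower, and the test of the difference between the 2 responses called 2.84% of genes. Of the 300 genes that rose in WT, 53 were also called higher in KO, 6 were called lower, and the responses differed in 104 (81 with the pair averaged). Of the 205 that fell in WT, 67 were called lower in KO, 1 higher, and the responses differed in 29 (22). These genes were chosen by the WT libraries that also enter the difference, so the counts are a description.

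The responses differed in 20 of the 32 megakaryocyte and platelet genes (15 with the pair averaged and 14 in limma-voom), whose KO median was -0.29, and in 0 of the 66 mitosis genes, whose KO median was 0.58 (16 differed at an unadjusted p under 0.05 in limma and 1 in limma-voom). Pf4 went from 1272 ± 928 to 2910.4 ± 1562 in KO (n = 3 and 3), a log2 difference of 1.05 against 4.11 in WT (adjusted p of the difference between responses = 0.00505). Apoe went from 14699.6 ± 1504 to 7024 ± 1137, so it rose in WT and had a difference of -1.03 in KO (3.51e-06). Emb went from 4698 ± 235 to 3793 ± 1485, a log2 difference of -0.34 in KO (0.00166). For H2-Aa, Fos and Sult1a1, which fell in WT, the KO differences were -2.13, -2.04 and -2.82, and no difference between the responses was called (0.507, 0.235 and 0.88), which does not show that they were alike.

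**Figure D5:**
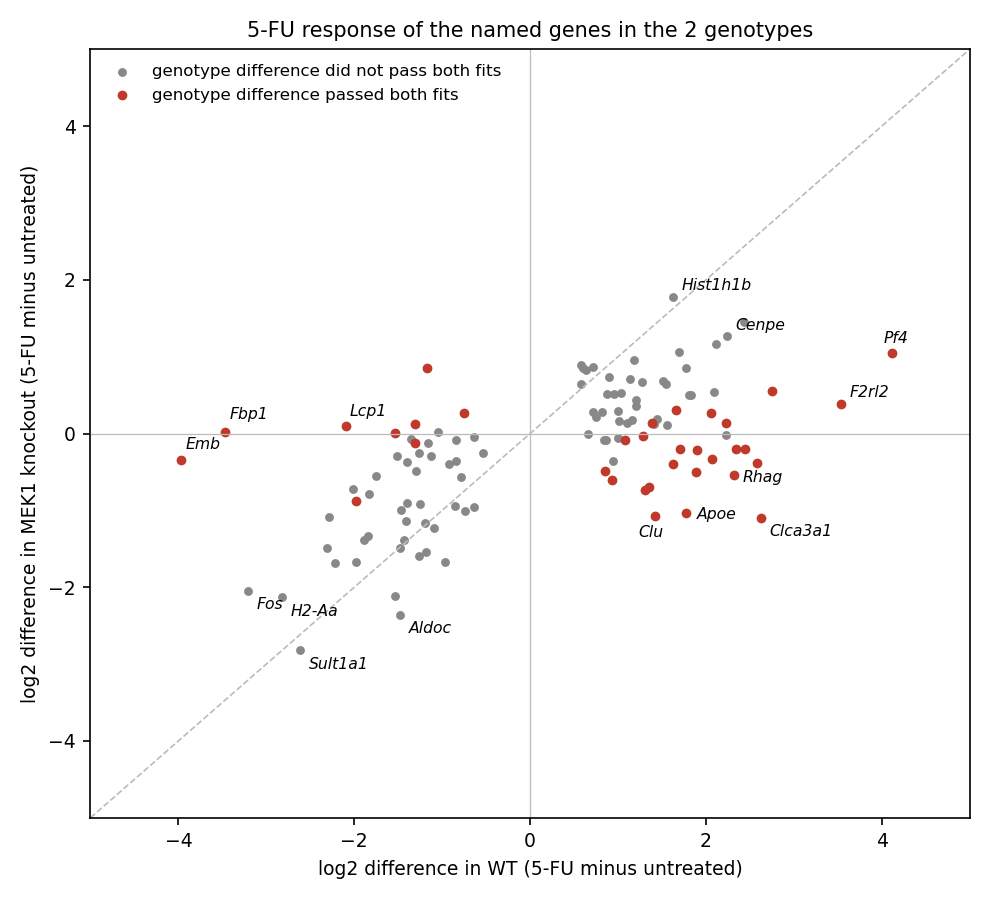
Log2 difference, 5-FU minus untreated, in WT (x axis) and in MEK1 knockout (y axis) for the named genes called in WT, with the line of equal response dashed. Red points, whose responses differed between genotypes in both fits, include Pf4, Clca3a1, Apoe, Emb and Fbp1, whereas Fos, H2-Aa and Sult1a1 lie below 0 in both genotypes in grey.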

How the data were processed

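Only the table of normalized values was used. Per the submitters' processing notes, reads were handled with Trimmomatic, Bowtie 1.1.1 and DESeq2 on mm10 (GRCm38), and the authors deposited log2-scale variance-stabilized values. Not given in the sources used here are the counting tool, annotation and strand setting, and Smart-seq2 reads carry no strand. Inverting the transformation gave whole reads (largest distance from a whole number 0.00288) for 100% of genes in all 13 libraries. Genes that reached a normalized count of 10 in 3 or more libraries entered limma 3.58.1 (R 4.3.3) on the deposited values, with 1 mean per group over 13 libraries, eBayes with trend and Benjamini-Hochberg adjustment at 0.05, and again with A3 and D4 averaged. The method was tested on simulated counts of independent libraries with the same dispersion for all genes. The simulation held no near copies and no date effect, so it cannot show how the method fares with them. Symbols and lengths came from GENCODE M21, promoters from RefSeq (9505 of 12846 genes matched). Genes named were, per direction, the 12 with the largest log2 difference that passed both fits, reached a mean of 50 and did not overlap, then up to 4 members per described list by smallest p (3 where fewer than 3 passed), and 9 check genes. The members, lists and rules were chosen with earlier results of these data known. A count of 0 allows up to 3 reads (0.979 to 4.35 normalized counts), for counting error only. Some genes counted in the lists are not reported here by name. Alternatives were other filters, scalings, pseudocounts, weights, batch terms, thresholds and left-out libraries.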

Additional observations from a re-analysis of the deposited data

Results flagged for a closer look

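One treated library lay apart from the other 3 for 5 named genes, each time A2. A2 held the highest normalized count for Emb (859.8), Fbp1 (206), Il2rg (2716) and Ccnd2 (6246) and the lowest for Icam4 (1838). These are 5 of the 117 named genes called with 7 libraries. Chance alone puts a library this far out in about 1 in 20 groups of independent libraries. That rate cannot be applied to this count, since A3 and D4 are near copies and the genes were measured in the same libraries. Whether A2 differs from the other treated libraries beyond chance was not tested.

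The WT and KO responses to 5-FU differed by the test of the difference itself, in both fits, for 34 of the 117 named genes called in WT. The WT minus KO difference of the log2 responses was positive for Pf4 (3.07), F2rl2 (3.15), Selp (2.19), Clca3a1 (3.72), Mfsd2b (2.97), Ackr1 (2.65), Ces2g (2.54), Rhag (2.86), P2ry1 (2.09), Itga2b (1.90), Ctla2a (1.53), Gp1bb (2.39), Icam4 (1.31), S100a8 (2.05), Fcer1a (2.10), Vwf (2.02), Gadd45g (2.41), Cdkn2d (1.33), Apoe (2.81), Clu (2.50), Timp3 (2.04), Serpine2 (1.79), Rps29 (1.34), Rps28 (1.25) and Rpl37a (1.16). It was negative for Emb (-3.63), Fbp1 (-3.49), Lcp1 (-2.19), Ebi3 (-1.10), Anxa1 (-1.54), Il2rg (-1.43), Pgam1 (-1.02), Lpcat2 (-1.18) and Apobr (-2.03). Lat, a named gene that was not called in WT, also passed this test in both fits (1.15). The others were named for their WT response, which enters the difference.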

How the results depend on the processing

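Against the 858 genes called (478 higher, 380 lower), averaging A3 and D4 gave 510 (305 and 205), fitting only the 7 WT libraries 415 (223 and 192), the first flowcell alone 534 (269 higher), acquisition date as a term 219 (147 and 72), library weights 1732 (879 and 853), a threshold of 0.01 332 (187 and 145) and a log2 difference of at least 1 as well 357 (199 and 158). The library weights were 3.77 and 4.59 for the near copies A3 and D4 and 0.399 to 0.63 for the other WT libraries. The count with weights thus leans on the near copies. Leaving out single WT libraries gave 464 to 990 (269 to 548 higher, 195 to 450 lower), lowest without D4. Without A3 532 passed (213 lower) and without untreated D3 313 were higher. Filters, quantile and TMM scaling, pseudocounts of 0.5, 1 and 5, limma-voom, robust variances and a flowcell term stayed within 1.5 times of each count. With the pair averaged, added after seeing the data, the 510 became 198 with only WT libraries and 334 without untreated D3. The interaction count of 365 became 237 with the pair averaged and 198 to 476 without single WT libraries, lowest without D4 and 227 without A3. No named gene that passed reversed its direction under these settings, which the choice of these genes from the same libraries largely fixed. All 24 top genes passed at 0.05 in each fit except Chrnb1, with the pair averaged and untreated D3 left out. These 24 were chosen from the same libraries for large differences that passed both fits without overlap. Their stability is therefore largely fixed by that choice and is no separate support. At least 1 of quantile, TMM and voom scaling turned the sign of the list medians of the mast cell, T cell, ERK target, kinase cascade, G1 cyclin, actin and clock lists, which lie near 0, and quantile normalization lowered the ribosomal median from 0.40 to 0.22. No paired analysis was possible because the replicate codes of the WT groups are not shared. Within the 2015 date the WT contrast holds 1 treated library, D4, against 3, and depth limits genes below about 3 reads.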

Other observations

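Not all megakaryocyte genes followed the group. Tbxas1, encoding thromboxane synthase, averaged 5745 after 5-FU and 5833 untreated (log2 difference 0.04, limma adjusted p = 0.954), and Rgs18, a regulator of G protein signalling in platelets, 9247 after 5-FU and 7903 untreated (0.23, 0.433). The platelet chemokine gene Ppbp averaged 166 after 5-FU and 121 untreated (0.849), and the beta tubulin gene Tubb1 of mature platelets 147 after 5-FU and 48 untreated (0.152). Mmrn1, encoding multimerin of platelet granules, averaged 1180.4 after 5-FU and 3311 untreated without passing (-1.93, 0.236). These members were picked after their values were seen.

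Map2k1 fell into pairs within the treated WT group, at 604 and 584 normalized counts in A2 and A4 and at 1634 and 1573 in the near copies A3 and D4.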
